A study of Homo sapiens with 6 samples.

Results

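The 10 genes of Wnt signalling described here were measured in MDA-MB-231-DR cells treated with cyperotundone (CYT). They were the ligand genes WNT5A, WNT5B and WNT7B, the antagonist genes DKK1 and DKK3, the co-receptor genes LRP5 and LRP6, CTNNB1, which encodes beta-catenin, and the scaffold genes AXIN1 and AXIN2. The 10 genes were chosen by name, and each matched 1 row among the 58302 genes of the table. MDA-MB-231-DR descends from MDA-MB-231, a triple-negative breast cancer line, and is resistant to doxorubicin, of which a low concentration was kept in its medium. CYT is a compound of sedge plants. RNA of 3 control libraries and 3 CYT libraries, both groups from the resistant line, was sequenced, and the sources used here give neither the dose nor the duration of CYT for these libraries. The labels do not say whether the libraries came from separate cultures, and the study's methods mention independent experiments only for its data in general. If they did not, the p-values measure the spread between libraries, which may be technical.

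Wnt proteins are secreted, lipid-modified signals. In the canonical branch they bind a Frizzled receptor together with LRP5 or LRP6, which stops a complex built on AXIN proteins from marking beta-catenin for destruction, and beta-catenin then acts in the nucleus with TCF and LEF factors. DKK1 blocks this branch by binding LRP5 and LRP6. AXIN2 is transcribed in response to beta-catenin and feeds back on it, and DKK1 is also a known target. WNT5A and WNT5B are known mainly for branches that do not use beta-catenin and that act on cell polarity and migration.

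Total counts ran from 13056270 to 17770102, and all 10 genes passed the filter on low counts. CYT replicate 2 stood apart, with a correlation of log2 CPM across genes of 0.905 and 0.904 with the other CYT libraries, against 0.970 between those. Levels are given in CPM, counts scaled to library size with TMM factors, and comparisons between genes use the deposited FPKM, which is also divided by gene length. SE is the standard error of the log2 fold change of CYT over control (log2FC), and SD is over the 3 libraries of a group. A gene was called when edgeR's quasi-likelihood test gave an adjusted p under 0.05 over all 15572 tested genes. Markers of the mesenchymal line were present, with VIM at 2459 ± 253 CPM in control cells (SD, n = 3), and 3 of the 6 were called lower, their sum being from 4170 to 4487 CPM in control and from 1927 to 2424 CPM in CYT libraries. Among luminal markers, ESR1 had at most 4 counts and PGR at most 3 counts in a library. The summed level of 5 leukocyte markers was from 0.213 to 1.37 CPM in control and from 4.09 to 5.12 CPM in CYT libraries, with CD3E at 0 in all 6. CD14 made most of this rise, from 0.733 ± 0.585 to 3.90 ± 0.301 CPM (edgeR adjusted p = 0.0157), and PTPRC and LYZ were at 0 in control and at most 11 counts in CYT libraries. The sum of 6 luminal epithelial markers was from 206 to 422 CPM in control and from 15.7 to 42.2 CPM in CYT libraries. KRT19 alone held most of that luminal sum, at 417, 201 and 244 CPM in control and 38.5, 10.5 and 30.0 CPM in CYT libraries, while CDH1 was at 0 in control and at most 1.14 CPM in CYT libraries. The 7 fibroblast markers summed to 19.6 to 36.1 CPM in control and 5.48 to 7.26 CPM in CYT libraries, with DCN at 0 in all 6. The 4 endothelial markers summed to 1.86 to 3.59 and 2.75 to 4.93 CPM. Of the tested markers, 1 of 1 leukocyte and 1 of 3 endothelial genes were called higher, and 1 of 2 luminal and 2 of 2 fibroblast genes lower. Among all tested genes 15.7% were called higher and 12.9% lower. The higher ones, CD14 (10, 4 and 19 counts in control libraries) and KDR (5, 5 and 4), passed the low-count filter only through the CYT libraries. Their direction was thus fixed by the filter. The part of all these marker lists in the results below was not tested. Fewer cells that express a gene and less RNA per cell cannot be told apart in these bulk samples.

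After CYT treatment DKK1 fell 12.5-fold and LRP5 fell 3.20-fold, while WNT5A rose 4.03-fold and AXIN2 rose 2.22-fold. The other 6 genes were not called, among them CTNNB1. Without CYT replicate 2 the same 4 genes were called, at log2 fold changes of -3.69 (DKK1), -1.37 (LRP5), 1.55 (WNT5A) and 1.03 (AXIN2). Leaving out control replicate 1 instead left 2 of the 10 called, with 18.2% of all tested genes called in that fit. LRP5 (edgeR adjusted p = 0.0598) and AXIN2 (edgeR adjusted p = 0.0792) were the ones lost. AXIN2 lost its call in 5 of 15 alternative fits. The 4 calls in 10 genes stand beside 28.6% of all tested genes called in this comparison (15.7% higher and 12.9% lower), so calls were common among genes in general. The CPM of the groups did not overlap for 5 of the 10 genes, against 46.1% of all tested genes. The median log2FC of the 10 genes was -0.47 and that of all tested genes was 0.0064.

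**Figure D1:**
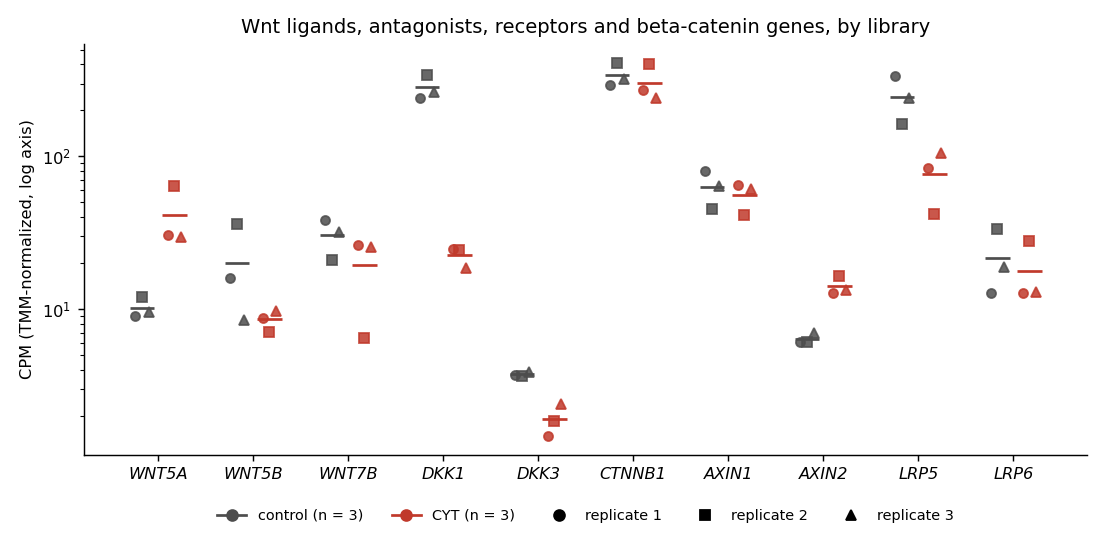
TMM-normalized CPM on a log axis for the 10 genes in each library, with control in grey, CYT in red, a marker shape for each replicate number and a bar at the mean of 3 libraries. DKK1 and LRP5 lie lower and WNT5A and AXIN2 higher in every CYT library than in any control library, and DKK3 also does not overlap between the groups.

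DKK1 (ENSG00000107984) maps to GRCh38 chromosome 10, plus strand, at 52314296 to 52318042. It encodes Dickkopf-1, the secreted inhibitor that binds LRP5 and LRP6. The 250 bases before its RefSeq start site are shown because it had the largest change of the 10 genes and because the window holds letters known as the core of TCF and LEF sites. Capitals mark CTTTGA, its reverse complement TCAAAG, and TATAAA.
DKK1, chr10:52314031-52314280, GRCh38.p14, plus strand: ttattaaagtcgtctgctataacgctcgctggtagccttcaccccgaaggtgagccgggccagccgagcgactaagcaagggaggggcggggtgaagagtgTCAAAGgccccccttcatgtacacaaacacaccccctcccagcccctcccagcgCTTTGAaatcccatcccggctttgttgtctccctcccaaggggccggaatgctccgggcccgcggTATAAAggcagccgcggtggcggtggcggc
The first base of TCAAAG lies at position -149, of CTTTGA at -95 and of TATAAA at -30 from the start site. Of 35116 RefSeq promoter windows of 300 bases, 12.9% hold CTTTGA on either strand and 1.29% hold it at 2 or more positions, while 11.5% hold TATAAA on either strand. A match of letters is a description of the sequence and does not show that a factor binds there.

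DKK1 had 3875, 6443 and 3692 raw counts in the control libraries (replicates 1 to 3, an order kept throughout) and 353, 343 and 235 after CYT treatment. The scaled levels were 240.2, 343 and 265 in control and 24.9, 24.4 and 18.7 in CYT libraries. The lowest control library was thus far above the highest CYT library. The mean was 283 ± 53.6 CPM in control and 22.7 ± 3.46 CPM in CYT-treated cells (SD, n = 3 each). The log2FC was -3.64 (SE 0.32, edgeR adjusted p = 0.000326), and over 15 alternative fits it ran from -3.75 to -3.44, the call being kept in all of them. Of the 15572 tested genes, 52 (0.334%) fell as far as DKK1 or further, and 3.84% changed by as much in either direction. DKK1 was the most abundant of the 10 genes per length in control cells (FPKM 96.8 ± 24.6, above 97.6% of tested genes) and stood behind CTNNB1 and LRP5 after CYT treatment (FPKM 7.85 ± 1.62, above 75.8%). An exact permutation of the 6 libraries gave a two-sided p of 0.1, the least that 3 against 3 can reach, and the same value holds for every gene below whose groups do not overlap.

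DKK3 (ENSG00000050165, chromosome 11 from 11963106 to 12009769, minus strand) encodes a divergent Dickkopf family protein. It was the least abundant of the 10 genes per length in both groups, at FPKM 0.400 ± 0.0252 in control and 0.204 ± 0.0408 in CYT-treated cells. Its raw counts were 60, 69 and 54 in control and 21, 26 and 30 in CYT libraries, and in CPM the groups did not overlap. The log2FC of -0.98 (SE 0.40) did not pass (edgeR adjusted p = 0.0924). On log2(FPKM + 1), a scale whose pseudocount is above the level of this gene, in limma the adjusted p was 0.0491 and the log2FC -0.22.

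LRP5 (ENSG00000162337) lies on chromosome 11 from 68312609 to 68449275 on the plus strand and encodes one of the co-receptors that DKK1 binds. The 250 bases before its start site are printed for comparison with those of DKK1, since both genes fell, and no base is in capitals because neither CTTTGA nor TATAAA was found in either direction.
LRP5, chr11:68312341-68312590, GRCh38.p14, plus strand: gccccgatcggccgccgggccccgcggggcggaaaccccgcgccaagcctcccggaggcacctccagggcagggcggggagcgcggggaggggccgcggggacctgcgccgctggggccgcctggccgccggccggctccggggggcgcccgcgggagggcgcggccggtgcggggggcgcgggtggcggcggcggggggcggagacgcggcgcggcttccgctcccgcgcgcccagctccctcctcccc
The bases G and C make up 87.2% of this window and 62.8% of that of DKK1. It holds GGGCGG, the core of a GC box, at 3 positions, and 45% of all 300-base windows hold GGGCGG on at least 1 strand.

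LRP5 was at 337, 163 and 240 CPM in control libraries and at 83.7, 41.9 and 105 CPM in CYT libraries. Replicate 2 was the lowest in both groups, and the groups did not overlap. The means were 246 ± 87.1 and 77.0 ± 32.2 CPM (SD, n = 3), with a log2FC of -1.68 (SE 0.41, edgeR adjusted p = 0.0147). Of 15 alternative fits, 1 lost the call, the fit without control replicate 1 (log2FC -1.39, edgeR adjusted p = 0.0598).

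LRP6 (ENSG00000070018, chromosome 12 from 12116025 to 12267012, minus strand) encodes the other co-receptor of this pair. Its CPM values were 12.8, 33.5 and 18.8 in control and 12.7, 27.8 and 13.03 in CYT libraries. Replicate 2 was the highest in both groups, and the groups overlapped. The log2FC was -0.28 (SE 0.45, edgeR adjusted p = 0.673), and it was 0.21 without control replicate 2. Per length, LRP5 (FPKM 29.9 ± 8.74) was well above LRP6 (1.41 ± 0.779) in control cells, and it remained above it after CYT treatment (9.43 ± 3.44 against 1.18 ± 0.648).

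WNT5A (ENSG00000114251) lies on chromosome 3 from 55465715 to 55490539 on the minus strand, and its protein signals largely through receptors such as ROR1, ROR2 and RYK. RefSeq gives 2 start sites 5908 bases apart, and the 250 bases before each are printed because the gene count does not tell which one made the additional RNA. No base is in capitals, since neither window holds CTTTGA in either direction, and the same is true of TATAAA and of the AP-1 letters TGANTCA, where N is any base.
WNT5A upstream start, chr3:55487307-55487556, GRCh38.p14, minus strand: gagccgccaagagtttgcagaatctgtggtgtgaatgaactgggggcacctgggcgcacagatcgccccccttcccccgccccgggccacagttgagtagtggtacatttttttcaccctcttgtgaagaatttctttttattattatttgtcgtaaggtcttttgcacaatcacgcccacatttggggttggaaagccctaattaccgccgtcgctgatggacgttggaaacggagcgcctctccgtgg
WNT5A downstream start, chr3:55481399-55481648, GRCh38.p14, minus strand: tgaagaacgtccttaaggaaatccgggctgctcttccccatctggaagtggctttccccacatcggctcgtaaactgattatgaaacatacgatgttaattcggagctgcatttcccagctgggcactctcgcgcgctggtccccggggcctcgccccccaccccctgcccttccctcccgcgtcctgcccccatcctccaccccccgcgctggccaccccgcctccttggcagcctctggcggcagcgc
The GC content was 52.8% before the upstream and 64.4% before the downstream start. TGANTCA is found in 7.71% of all 300-base windows.

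WNT5A had 145, 226 and 134 raw counts in control libraries and 431, 897 and 371 in CYT libraries. Scaled to library size, the control libraries were at 8.99, 12.03 and 9.63 and the CYT libraries at 30.4, 63.8 and 29.5. CYT replicate 2 stood well above replicates 1 and 3 of its group, and the lowest CYT library was still above the highest control library. The log2FC was 2.01 (SE 0.39, edgeR adjusted p = 0.00491). It ran from 1.13 with limma on log2(FPKM + 1) to 2.19 over 15 alternative fits, with the call kept in each. Without CYT replicate 2 it was 1.55 (edgeR adjusted p = 0.00292). WNT5A-AS1, an antisense gene inside the annotated span of WNT5A, starts 393 bases from the upstream start site and had at most 20 counts in a library. Since the use of strand in counting is not given in the sources used here, reads of the pair may be mixed, and this was not tested. The counts assigned to WNT5A-AS1 were at most 4.83% of those of WNT5A.

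WNT5B (ENSG00000111186, chromosome 12 from 1529891 to 1647243, plus strand) encodes the closest relative of WNT5A. Its CPM values were 16.1, 35.9 and 8.48 in control and 8.82, 7.12 and 9.77 in CYT libraries. The control libraries spread 4.24-fold, the CYT libraries 1.37-fold, and control replicate 3 lay within the CYT range. The log2FC was -1.24 (SE 0.49, edgeR adjusted p = 0.0890), and among the alternative fits it was called only without control replicate 3 (-1.60, edgeR adjusted p = 0.0410), while without control replicate 2 it was -0.48. FBXL14, a protein-coding gene on the opposite strand inside the span of WNT5B, had 0.510 to 1.58 times the counts of WNT5B in control and 3.19 to 4.05 times in CYT libraries, and it was itself called higher (log2FC 0.97, edgeR adjusted p = 0.0392). Without stated use of strand, reads of this pair may be mixed.

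WNT7B (ENSG00000188064, chromosome 22 from 45920362 to 45977129, minus strand) encodes a ligand that can act through beta-catenin. It was at 38.4, 21.1 and 32.1 CPM in control and at 26.2, 6.48 and 25.5 CPM in CYT libraries, lowest in replicate 2 of both groups. The groups overlapped, and the log2FC of -0.65 (SE 0.50) did not pass (edgeR adjusted p = 0.356).

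CTNNB1 (ENSG00000168036, chromosome 3 from 41194837 to 41260096 in the table, plus strand) was at 291, 411 and 320.2 CPM in control and at 273, 401 and 240.0 CPM in CYT libraries. Replicate 2 was the highest in both groups, and the groups overlapped. The means were 341 ± 62.4 and 305 ± 85.2 CPM (SD, n = 3), with a log2FC of -0.16 (SE 0.30, edgeR adjusted p = 0.722) that was 0.034 without control replicate 2. CTNNB1 became the most abundant of the 10 genes per length after CYT treatment, at FPKM 24.97 ± 8.69 against 27.4 ± 6.79 in control cells, with DKK1 and LRP5, both above it in control cells, now below it. ULK4, which overlaps CTNNB1 on the opposite strand, had at most 152 counts in a library, at most 2.91% of those of CTNNB1. These are RNA levels, and beta-catenin is regulated largely as a protein, which these data do not measure.

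AXIN1 (ENSG00000103126, chromosome 16 from 287440 to 352673, minus strand) encodes the constitutive scaffold of the destruction complex. It was at 80.4, 45.3 and 63.9 CPM in control and at 64.9, 41.1 and 61.1 CPM in CYT libraries. The groups overlapped, with a log2FC of -0.18 (SE 0.33, edgeR adjusted p = 0.714). It was 0.030 without control replicate 1 and 0.0091 without CYT replicate 2.

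AXIN2 (ENSG00000168646, chromosome 17 from 65528563 to 65561647, minus strand) encodes the inducible scaffold and is widely read as a target of beta-catenin. Its raw counts were 98, 115 and 97 in control and 180, 231 and 168 in CYT libraries. In CPM they were 6.08, 6.12 and 6.97 in control and 12.7, 16.4 and 13.3 in CYT libraries, with no overlap. The means were 6.39 ± 0.505 and 14.2 ± 2.002 CPM (SD, n = 3), and the log2FC was 1.15 (SE 0.31, edgeR adjusted p = 0.0218). The direction held in 15 alternative fits and the call was lost in 5 of them, namely without a filter on low counts (edgeR adjusted p = 0.0591) and without each control replicate or CYT replicate 3 in turn (edgeR adjusted p from 0.0551 to 0.0792).

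**Figure D2:**
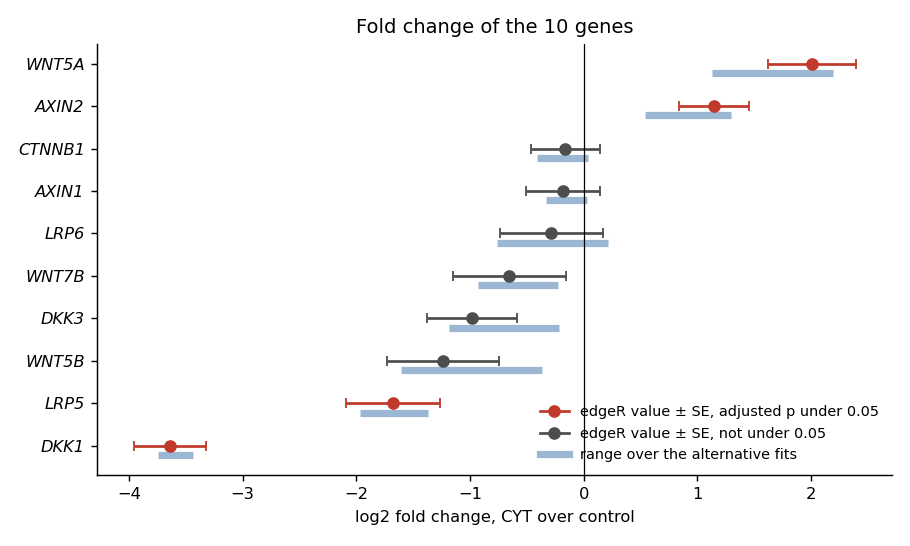
Log2 fold change of CYT over control for the 10 genes, with points and bars for the edgeR value ± standard error, red where the adjusted p was under 0.05, and a pale band for the range over the alternative fits. DKK1 lies at -3.64 with a narrow band, and the bands of CTNNB1, AXIN1 and LRP6 cross 0.

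Replicate 2 was the highest or the lowest library of both groups for 6 of the 10 genes and for 54.7% of all tested genes, a similar share. WNT5A, CTNNB1 and LRP6 were highest and WNT7B, AXIN1 and LRP5 lowest in replicate 2 of control and of CYT. The fit with the replicate number as a block called the same 4 genes of the 10, and so did a fit without both libraries numbered 2, which was added after the values were seen.

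Ratios of related genes within a library do not depend on scaling between libraries, and 4 pairs were compared. The count of WNT5A was 0.558, 0.335 and 1.14 times that of WNT5B in control libraries and 3.45, 8.97 and 3.02 times in CYT libraries. The balance of this pair moved by 2.93 on the log2 scale (control -0.75 ± 0.88, CYT 2.18 ± 0.86, SD, n = 3), with no overlap between the groups. Per length, WNT5B exceeded WNT5A in all control libraries and WNT5A exceeded WNT5B in all CYT libraries.
The count of DKK1 was 64.6, 93.4 and 68.4 times that of DKK3 in control and 16.8, 13.2 and 7.83 times in CYT libraries, a difference of -2.63 on the log2 scale. The ratio was lower in every CYT library than in any control library, and DKK1 stayed the more abundant of the pair. AXIN2 was 0.0756, 0.135 and 0.109 times AXIN1 in control and 0.196, 0.400 and 0.218 times in CYT libraries, a difference of 1.31 on the log2 scale without overlap. The ratio of LRP6 to LRP5 overlapped between the groups, at 0.0381, 0.206 and 0.0786 in control and 0.152, 0.664 and 0.124 in CYT libraries, and differed by 1.44 on the log2 scale. Taken by replicate number it was higher after CYT treatment in 3 of 3 pairs, and the standard error of the mean paired difference was 0.405. For the other pairs that standard error was 0.974 (WNT5A to WNT5B), 0.355 (DKK1 to DKK3) and 0.165 (AXIN2 to AXIN1). By exact permutation tests, two-sided, p was 0.1 for the first 3 pairs and 0.3 for the last, and 0.133 and 0.3 after Benjamini-Hochberg adjustment over the 4 pairs, and this unpaired test cannot go below 0.1.

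**Figure D3:**
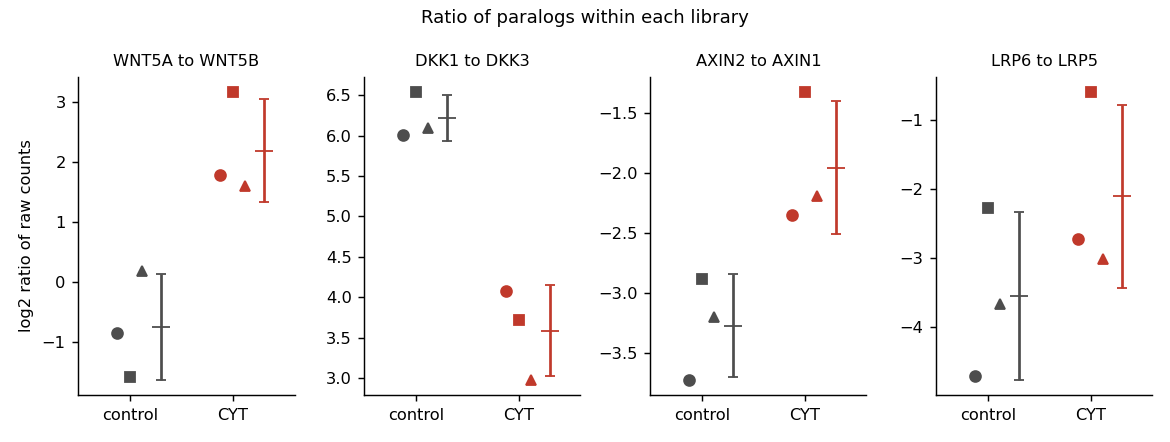
Log2 ratio of raw counts of 4 pairs of related genes in each library, with control in grey, CYT in red, a shape for each replicate number, and mean ± SD of 3 libraries beside the points. The groups do not overlap for WNT5A to WNT5B, DKK1 to DKK3 and AXIN2 to AXIN1, and they overlap for LRP6 to LRP5.

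Ranked by FPKM, the 10 genes in control cells were DKK1, LRP5, CTNNB1, AXIN1, WNT7B, WNT5B, LRP6, WNT5A, AXIN2 and DKK3. The ranges over libraries separated DKK1 from LRP5, CTNNB1 from AXIN1, and AXIN2 from DKK3, while the other neighbours in this order overlapped. After CYT treatment the order was CTNNB1, LRP5, DKK1, AXIN1, WNT5A, WNT7B, AXIN2, LRP6, WNT5B and DKK3. Only CTNNB1 from LRP5, and WNT5B from DKK3, were then separate from the next gene. WNT5A moved from FPKM 0.702 ± 0.155, above 25.6% of tested genes, to 2.91 ± 1.58, above 53.6%.

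The 19 Wnt ligand genes of the genome were all in the table, and 10 passed the filter on low counts. Of these 10, 4 were called higher (WNT5A among them) and 1 lower, against 15.7% and 12.9% of all tested genes. Among the 4, WNT4 had at most 3 counts in a control library and passed the filter only through the CYT libraries, so its direction was fixed by the filter. The other 2 ligands taken by the rule for named genes were WNT9A and WNT3. WNT9A rose from 2.31 ± 0.669 to 25.4 ± 10.5 CPM (log2FC 3.46, edgeR adjusted p = 0.00111), and WNT3, a ligand of the canonical branch, rose from 11.1 ± 0.737 to 46.5 ± 8.60 CPM (2.07, edgeR adjusted p = 0.00157). The summed FPKM of the 19 genes was 12.6, 14.03 and 11.6 in control and 25.6, 24.6 and 25.03 in CYT libraries. WNT5A, WNT5B and WNT7B together held 71.3%, 74.3% and 65.7% of the raw ligand counts in control libraries and 44.0%, 47.4% and 42.7% in CYT libraries. The summed level of these 3 genes was 63.5, 69.1 and 50.2 CPM in control and 65.5, 77.4 and 64.8 CPM in CYT libraries, while that of the other 16 ligand genes was 25.5, 23.96 and 26.2 CPM in control and 83.2, 86.1 and 87.0 CPM in CYT libraries. The share of the 3 genes was thus lower beside a higher level of the others, and it fell by 25.7 percentage points between the group means (p = 0.1 by two-sided exact permutation, the least this design can give). The share of WNT5A alone was 11.9 ± 1.55% in control and 26.3 ± 11.05% in CYT-treated cells, and that of WNT7B was 35.9 ± 11.5% and 12.8 ± 7.67% (SD, n = 3).

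**Figure D4:**
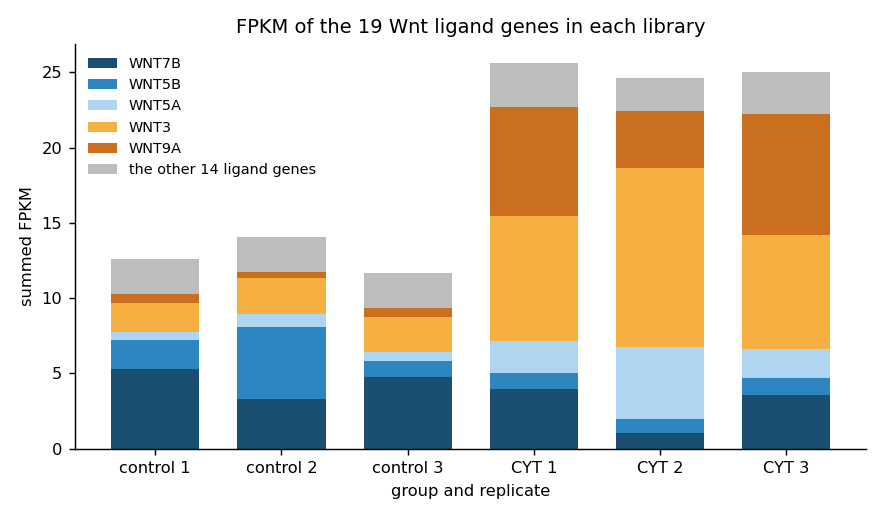
Summed FPKM of the 19 Wnt ligand genes in each library, stacked by gene. The total is 11.6 to 14.03 in control and 24.6 to 25.6 in CYT libraries, and WNT3 and WNT9A take a larger part of the CYT bars.

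Beyond the 10 genes, 149 other Wnt pathway genes were listed, of which 106 were tested. Of these 106, 34 (32.1%) were called, 14 higher and 20 lower, close to the 28.6% of all tested genes, and their median log2FC was -0.014. Under upper-quartile normalization, which moved the median of all tested genes from 0.0064 to 0.16, the median of the 106 was 0.14 and the split was 16 higher and 16 lower. With the replicate block 50 of the 106 (47.2%) were called, 19 higher and 31 lower, against 39.9% of all tested genes.

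In 3 of the called pathway genes, WNT4, LGR5 and DKKL1, which were picked for this property, every control library was under 10 counts, so they were tested only through the CYT group and had to be higher. APCDD1, picked after its values were seen, had 7, 17 and 9 counts in control and also passed the filter only through the CYT libraries. All of these genes count in the lists below.

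Among the 18 tested receptor genes, LRP5 and LRP6 included, 6 were called higher (LGR5 included) and 3 lower, or 7 and 2 under upper-quartile normalization, 50% of the list beside 28.6% of all tested genes. The Frizzled gene FZD1 rose from 16.4 ± 0.760 to 48.6 ± 3.96 CPM (edgeR adjusted p = 0.00334), and FZD5 rose from 6.26 ± 0.598 to 15.7 ± 2.52 CPM (edgeR adjusted p = 0.0126). ROR1, a tyrosine kinase-like receptor of WNT5A, fell from 10.7 ± 3.05 to 2.53 ± 1.35 CPM (log2FC -2.08, edgeR adjusted p = 0.0103), opposite in direction to its ligand. Among the 8 tested antagonist genes, DKK1 and DKK3 included, 2 were called in each direction (DKKL1 among the higher). That was 50% of the list, beside 28.6% of all tested genes. With the replicate block 1 was higher and 3 were lower, where 39.9% of all tested genes were called. IGFBP4, whose secreted product can inhibit Wnt signalling besides binding growth factors, fell from 3168 ± 471 to 1235 ± 563 CPM (edgeR adjusted p = 0.0209). The call of IGFBP4 was lost on leaving out 3 of the 6 libraries in turn and that of FZD5 for 2. Of the genes for ligand secretion and agonists, 2 of 9 were tested and 0 called, with 0 at an unadjusted p under 0.05 and 0 called by DESeq2.

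Within the destruction complex and Dishevelled list, 25 genes were tested, 2 were called higher (AXIN2 and FRAT1) and 2 lower (DVL1 and CSNK1E), 16% of the list beside 28.6% of all tested genes. With the replicate number as a block 2 were higher and 6 lower, beside 39.9% of all tested genes called in that fit. Leaving out CYT replicate 2 gave 4 higher and 5 lower, beside 35.5% of all tested genes, so the lower share did not hold there. FRAT1, which binds the kinase GSK3 and keeps it from AXIN, rose from 13.8 ± 2.41 to 100.03 ± 30.5 CPM (log2FC 2.85, edgeR adjusted p = 0.000892). DVL1, a Dishevelled gene that relays the receptor signal, fell from 158 ± 63.0 to 37.5 ± 19.96 CPM (-2.07, edgeR adjusted p = 0.0136), a call lost without control replicate 3. CSNK1E, a kinase of Dishevelled, fell from 115 ± 32.0 to 43.5 ± 20.9 CPM (-1.40, edgeR adjusted p = 0.0323), a call lost on leaving out each of 3 libraries in turn.

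Of 20 tested genes for beta-catenin and its nuclear partners, 2 were called higher and 3 lower. That was 25% of the list, close to the 28.6% of all tested genes. The split was 3 and 2 under upper-quartile normalization and 5 and 4 with the replicate block, where 39.9% of all tested genes were called. TCF7 rose from 3.09 ± 1.11 to 17.9 ± 8.90 CPM (log2FC 2.54, edgeR adjusted p = 0.00576) and LEF1 from 8.87 ± 0.893 to 20.4 ± 2.77 CPM (1.20, edgeR adjusted p = 0.0164). CTNNBIP1, which keeps beta-catenin from TCF factors, fell from 52.4 ± 6.32 to 24.3 ± 5.92 CPM (-1.11, edgeR adjusted p = 0.0249). The calls of LEF1 and CTNNBIP1 were lost on leaving out 3 and 4 of the 6 libraries in turn, respectively. The 4 tested catenin genes of adherens junctions, CTNNB1 included, held 0 calls here, but 1 lower in DESeq2, with the replicate block and without CYT replicate 2, each time CTNND1. CTNND1 had an unadjusted edgeR p under 0.05 (0.0221) and was picked for naming by that value.

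The 17 tested targets of beta-catenin went both ways, with 6 called higher and 4 lower, 58.8% beside 28.6% of all tested genes. The 6 include LGR5 and APCDD1, whose direction was fixed by the filter. AXIN2 and DKK1 were on opposite sides. The split was 6 and 3 under upper-quartile normalization, 6 and 5 in DESeq2 and 5 and 5 with the replicate block. With AXIN2, the targets TCF7 and LEF1 rose. With DKK1, CCND1, which encodes cyclin D1, fell from 449 ± 60.4 to 165 ± 22.4 CPM (log2FC -1.45, edgeR adjusted p = 0.00459), and FOSL1, an AP-1 subunit gene, fell from 152 ± 55.9 to 21.3 ± 13.1 CPM (-2.84, edgeR adjusted p = 0.00580). Of the 21 tested genes for planar polarity and other noncanonical branches, 8 were called lower and 0 higher, against 12.9% of all tested genes called lower. DESeq2 gave 9 lower and 1 higher and upper-quartile normalization 7 lower and 0 higher, and the replicate block 10 lower and 2 higher, where 3089 of all 15572 tested genes were lower. SCRIB, a polarity scaffold, fell from 191 ± 45.0 to 34.3 ± 20.9 CPM (edgeR adjusted p = 0.00553), CELSR1, a cadherin of planar polarity, fell from 67.8 ± 14.6 to 14.8 ± 5.30 CPM (edgeR adjusted p = 0.00239), and CAMK2G, a calcium-dependent kinase gene, fell from 72.1 ± 5.71 to 21.9 ± 2.59 CPM (edgeR adjusted p = 0.00251).

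**Figure D5:**
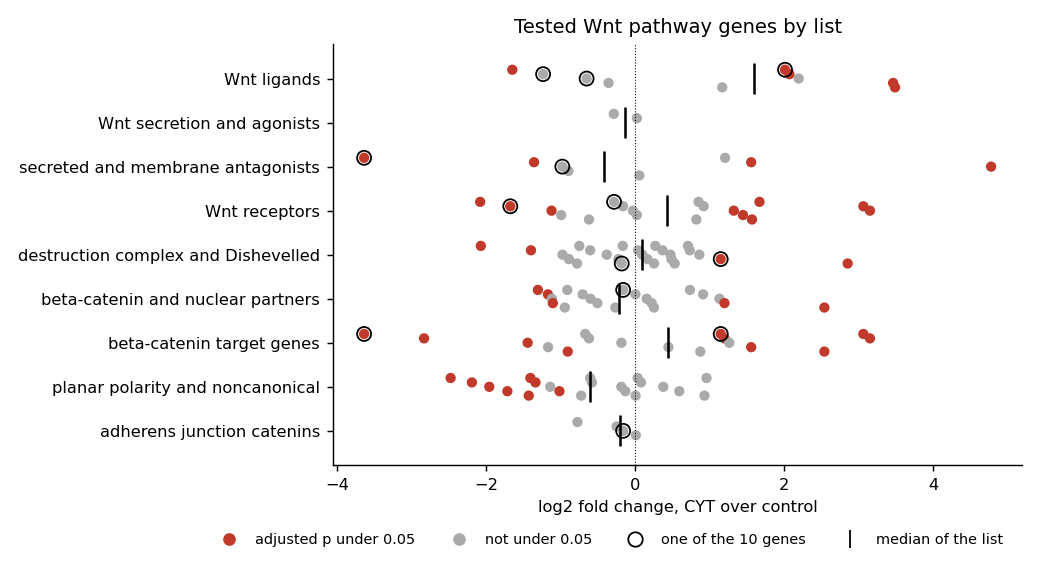
Log2 fold change of CYT over control for the tested genes of 9 Wnt pathway lists, 1 point a gene, red where the edgeR adjusted p was under 0.05, ringed for the 10 genes, with a black bar at the median of each list. The called genes of the planar polarity list all lie below 0, while the receptor and target lists hold called genes on both sides.

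Likeness of pattern was measured as the root mean square difference of mean-centred log2 CPM over the 6 libraries, among 10561 protein-coding genes with a mean of at least 5 CPM. The genes nearest to DKK1 were PHLDA1 (0.106), PODXL (0.254) and BUB1B (0.280), nearest to WNT5A were MMD (0.0647), RSPRY1 (0.0682) and NSUN3 (0.0794), and nearest to CTNNB1 were TIGD2 (0.0622), ESYT2 (0.0638) and RTTN (0.0650). PHLDA1 was thus much nearer to DKK1 than the next gene was, while several genes lay about equally near to WNT5A and to CTNNB1.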

How the data were processed

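The table held raw counts per gene and FPKM for 3 control and 3 CYT libraries. The authors deposited the counts from clean reads (low-quality, adapter and ribosomal RNA reads removed) aligned with Hisat2, on hg38 per the labels, which also name FastQC 0.12.1. The counting program, its annotation and its use of strand are not given in the sources used here. The authors deposited FPKM, which the methods credit to Stringtie; for 10160 genes, each with 50 counts or more in all libraries, it implied the same gene length in all libraries within 0.00209%, so it is no separate measurement. Loci are those of the table, and 9 of the 10 have the same locus in GENCODE release 29, which gave the strand.

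The test used edgeR 4.0.16 under R 4.3.3 (TMM, filterByExpr with minimum count 10, quasi-likelihood test of CYT against control, Benjamini-Hochberg adjustment over 15572 genes). Standard errors were derived from F and the estimated change. Alternatives were a replicate block, each library left out in turn, DESeq2 1.42.0, protein-coding genes alone, limma 3.58.1 on FPKM (log2, 1 or 0.1 added), upper-quartile scaling, and filters set to none or to 5 CPM on average. The tests were tried on simulated data in which far fewer genes changed than were called here, all by the same size. That trial does not measure their error in these data.

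The 10 genes and the lists were chosen with earlier results of these data known. Besides the 10 genes, the text names the 3 genes of each list with the smallest adjusted p among called genes that averaged 5 CPM or more and did not overlap between groups, overlapping genes with at least 10 counts, and the 3 nearest in pattern to WNT5A, DKK1 and CTNNB1. Markers named singly were picked after their values were seen.

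Same-numbered libraries deviated together from their group means (correlations across genes 0.188, 0.458 and 0.125), which was taken as pairing. It rests on the numbers in the labels and this check alone, and control 1 with CYT 3 (0.303) and control 3 with CYT 1 (0.2005) exceeded the same-numbered values of libraries 1 and 3. Replicate pairs differed (chi-square per gene from 25.6 to 156), so none was taken as a copy. Promoter windows from RefSeq (GRCh38.p14) were matched for 6 of the 10 genes. Those of WNT7B, DKK3, AXIN2 and LRP6 were not analysed here.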

Additional observations from a re-analysis of the deposited data

How the results depend on the processing

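Of 149 alternative values of the 10 genes, 137 kept direction and side of the threshold. With a library left out, the log2 fold change ran from -0.41 to 0.034 for CTNNB1, from -0.33 to 0.030 for AXIN1 and from -0.76 to 0.21 for LRP6, turning sign without control replicate 2 (CTNNB1, LRP6), control replicate 1 (AXIN1, 0.030) and CYT replicate 2 (AXIN1, 0.0091), all uncalled. DKK3 did not pass the filter of 5 CPM on average. Of the 10 genes, 4 were called, and from 2 (without control replicate 1, where LRP5 and AXIN2 were lost) to 4 with a library left out; without control replicate 3 WNT5B was called and AXIN2 was not. Of 106 other pathway genes, 34 were called, from 18 (without control replicate 1) and 19 (without control replicate 3) to 47 (without CYT replicate 2), and 55 without both libraries numbered 2 (added after the values were seen). Over all genes 4451 were called, 2855 under the 5 CPM filter, which tested fewer of them, and from 2731 (without control replicate 3) and 2836 (without control replicate 1) to 5523 (without CYT replicate 2). With the replicate block 6209 genes, 50 pathway genes and 4 of the 10 genes were called, and no call changed among the 10 genes and the pathway genes named by the rule, while CTNND1, named for its unadjusted p, became called. The change in share of WNT5A, WNT5B and WNT7B among ligands was -33.1 percentage points in FPKM, where shorter genes weigh more. The cause of the other differences was not tested. Leaving out a library moved the log2 ratio differences to between 2.44 and 3.39 (WNT5A to WNT5B), -2.87 and -2.32 (DKK1 to DKK3), 0.995 and 1.51 (AXIN2 to AXIN1) and 0.69 and 2.08 (LRP6 to LRP5). DKK3 had the fewest counts of the 10 genes, with at most 69 in a library.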
